A study of Mus musculus with 12 samples.

Results

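Regulatory T cells (Treg) labelled Dcaf1-deficient, from mice of 2 months, were compared with wild-type Treg from mice over 18 months old, to ask what loss of Dcaf1 leaves out of the old Treg transcriptome. The groups were chosen by sample title and hold 2 libraries each, so that 4 of the 12 libraries of the series enter the comparison. All animals had the C57BL/6 strain background, and CD4+CD25+ cells were sorted from spleen by flow cytometry before poly(A)-enriched RNA sequencing. The deficient group is described only as Dcaf1-deficient, and the allele and any Cre driver are not given in the sources used here. Wild-type Treg of 2 months (2 libraries) give the young level, and conventional CD4 T cells (Tconv, 6 libraries) of the same 3 kinds of mice hold the same contrast in other libraries. The labels do not say whether replicates came from separate animals. The replicates read as different sexes in both Treg groups compared and thus had different sources there, but in the other groups the spread behind the p-values may be technical, except in aged Tconv, which also differ in sex.

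Treg are CD4 T cells that restrain immune responses through the transcription factor Foxp3, high surface CD25 (Il2ra), the inhibitory receptor Ctla4 and secreted products such as interleukin 10. With antigen experience they pass from a central state, marked by naive T cell genes such as Ccr7 and Tcf7, to an effector state with Prdm1, Batf, Icos, Itgae and Il10. Dcaf1, named Vprbp in the count table, is the substrate receptor of a cullin-RING ubiquitin ligase built on Cul4 and Ddb1, and such ligases select proteins for ubiquitination. Senescent cells typically carry the cell cycle inhibitors p21 (Cdkn1a) and p16 (Cdkn2a) and secrete growth factors and cytokines.

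Total estimated counts were 24546294 and 22122050 in the libraries labelled aged Treg 1 and 2, 26852448 and 22869637 in Dcaf1-deficient Treg 1 and 2, and 21947127 and 22300535 in young Treg 1 and 2. Levels are given as CPM (estimated counts over the TMM-scaled library size), and values in a series are always replicate 1 and then replicate 2. In 1 library, 3 counts correspond to 0.105 to 0.167 CPM, a limit that covers counting error only. By Xist and Ddx3y, aged Treg 2 and Dcaf1-deficient Treg 2 read as female and the other 4 Treg libraries as male. In Tconv, aged Tconv 2 and both Dcaf1-deficient libraries read as female and the other 3 as male, so that sex is unevenly spread over the Tconv contrast as well. The titles also carry a tag of unstated meaning, and aged Treg 2 is the only Treg library with L3, the others having L4. Transcripts of other spleen cells differed between libraries more than between labels: 14 macrophage genes with a count summed to 13200 and 1560 CPM in aged Treg, 15400 and 19000 in Dcaf1-deficient Treg and 255 and 5200 in young Treg. The 10 B cell genes summed to 5180 and 626, 6160 and 6870, and 163 and 5650 CPM in the same order. For 15 erythroid genes the sums were 4880 and 306, 5700 and 12800, and 260 and 1790 CPM, while 15 proximal T cell receptor genes summed to 5480 and 10400, 5050 and 4690, and 9820 and 6680. C1qa, Cd79a and Hbb-bs, which define these lists, had counts in all 6 Treg libraries, at 96.2, 12.9 and 54.5 CPM in aged Treg 2. In bulk RNA, fewer cells of a type and less RNA per cell cannot be told apart.

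The old replicates were far apart, and the library labelled aged Treg 1 stood beside the Dcaf1-deficient libraries. Of 9495 genes, 218 (2.3%) differed by more than 2-fold between the library labelled aged Treg 1 and Dcaf1-deficient Treg 1. The Dcaf1-deficient libraries differed from each other at 463 genes (4.88%). Between the old libraries 2320 genes (24.4%) differed by that much, and aged Treg 2 differed from Dcaf1-deficient Treg 1 and 2 at 2599 and 2676 genes. The young libraries were also apart, at 1638 genes. The library labelled aged Treg 1 was thus nearer to a Dcaf1-deficient library than the Dcaf1-deficient libraries were to each other.

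**Figure D1:**
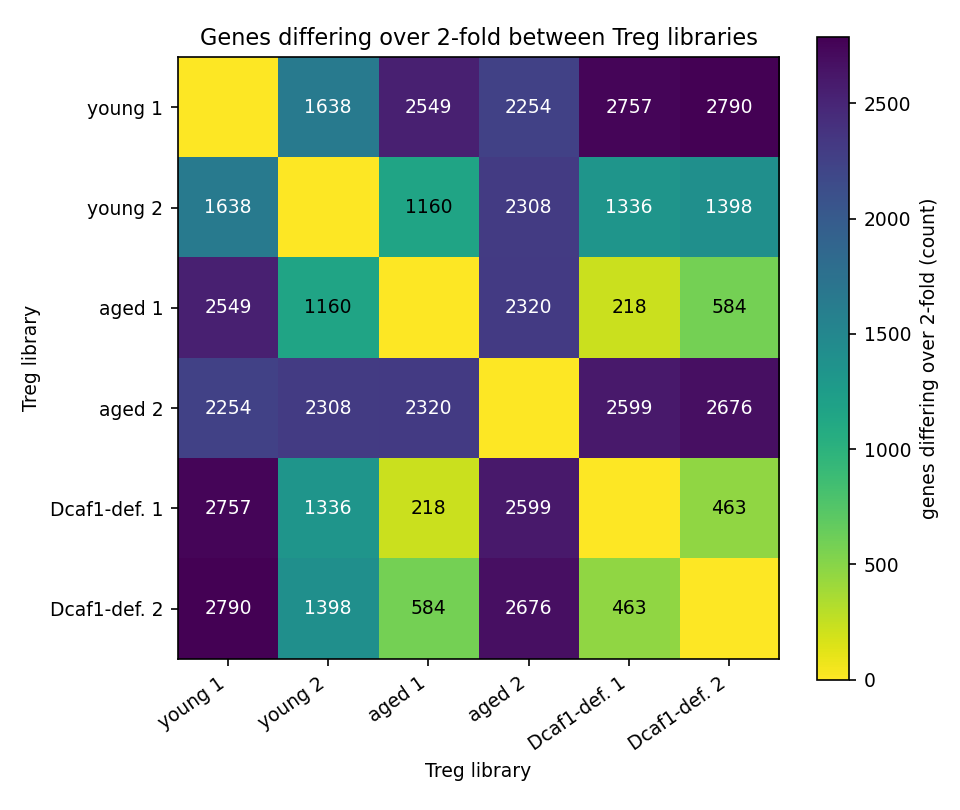
Number of 9495 genes that differ by more than 2-fold (log2 CPM difference over 1) in each pair of the 6 Treg libraries. The pair of the library labelled aged Treg 1 and Dcaf1-deficient Treg 1 has the lowest count, 218, and the pair of old libraries has 2320.

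Genes near Dcaf1 on chromosome 9 separated the libraries by label in Tconv and not in Treg. Col6a4, a collagen VI chain gene (mm10 chromosome 9, 105989454 to 106096783), was at 29.2 and 28.8 CPM in Dcaf1-deficient Treg and 37.7 and 37.2 in Dcaf1-deficient Tconv. It was at 0.167 and 0 CPM in aged Tconv, and at 22.5 CPM in the library labelled aged Treg 1 against 0 in aged Treg 2. Over the floor of 0.138 CPM in aged Treg 2, the mean of 29 ± 0.221 CPM (SD, n = 2) in Dcaf1-deficient Treg was at least 210-fold higher. Rpl29, a ribosomal protein gene (chromosome 9, 106429454 to 106431568), was at 34.0 and 31.5 CPM in Dcaf1-deficient Treg, 92.7 in the library labelled aged Treg 1, 438 in aged Treg 2, and 744 and 717 in young Treg. In Tconv, Rpl29 was at 43.0 and 37.9 CPM in Dcaf1-deficient and 606 and 495 in aged cells (log2 fold change -3.77, edgeR adjusted p 0.0283). Against aged Treg 2 its log2 fold change was -3.74 with SE 0.15 (edgeR adjusted p 3.14e-04). Abhd14b, a neighbouring hydrolase gene (chromosome 9, 106447459 to 106452923), was at 2.88 and 2.35, 5.72, 18.2, and 18.4 and 15 CPM in the same order, and at 1.37 and 1.88 in Dcaf1-deficient against 15.2 and 10.9 in aged Tconv. At all 3 genes the library labelled aged Treg 1 goes against its label, lying between aged Treg 2 and the Dcaf1-deficient libraries and nearer to the latter. How this came about was not tested. Levels of genes below are mostly given for each old library apart. Gene lists are described mainly against aged Treg 2, with most medians against the library labelled aged Treg 1 beside them. Processed copies of ribosomal protein genes make the exact Rpl29 counts uncertain.

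The targeted gene was lowest in both Dcaf1-deficient Treg libraries, but close to the library labelled aged Treg 1 and not called under TMM. Vprbp (chromosome 9, 106821874 to 106880992) was at 102 and 101 CPM in Dcaf1-deficient Treg, 105 in the library labelled aged Treg 1, 127 in aged Treg 2, and 144 and 128 in young Treg. Against aged Treg 2 its log2 fold change was -0.32 (SE 0.15, edgeR adjusted p 0.19), which turns to 0.70 when each library is scaled to the 15 proximal T cell receptor genes (edgeR adjusted p 0.0388). Gene-level counts do not show whether a part of the gene is deleted. Of 41 genes tested within 1 Mb of Dcaf1, 7 passed against aged Treg 2, where 10.1% of all genes passed. Col6a4, the hyaluronidase gene Hyal1 and Ifrd2 were higher in Dcaf1-deficient Treg, and Rpl29, Abhd14b, the kinase gene Mapkapk3 and the cytokine signalling inhibitor gene Cish were lower. The median over the 41 was 0.05 on the log2 scale.

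With the old libraries taken as a pair, edgeR's quasi-likelihood test called 0 of 9495 genes (0%) at an adjusted p under 0.05, and 702 (7.39%) had an unadjusted p under 0.05. DESeq2 called 63 of 10372 (0.607%), 1 higher (0.00964%) and 62 lower (0.598%) in Dcaf1-deficient Treg. The DESeq2 calls were led by genes near 0 in Dcaf1-deficient Treg, such as Ecel1 (DESeq2 log2 fold change -7.79, DESeq2 adjusted p 5.69e-10). Against the library labelled aged Treg 1 alone, edgeR called 0 of 9752 genes, 68 (0.697%) had an unadjusted p under 0.05, and DESeq2 called 7 (0.0612%), all lower. Against aged Treg 2 alone, edgeR called 306 of 9778 genes higher (3.13%) and 678 lower (6.93%) in Dcaf1-deficient Treg, or 10.1% in either direction, while 3012 had an unadjusted p under 0.05. A single old library has no replicate, and its spread is assumed to be that of the other groups.

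The 984 calls against aged Treg 2 rest on few libraries. The count was 61 and 18 without Dcaf1-deficient Treg 1 and 2, of which 59 and 16 were among the 984, and it was 0 with a term for the tag or in a fit of the Treg libraries alone. Sex, tag and this old library cannot be fully told apart, and a sex term gave 382 calls, 370 of them among the 984. Scaling each library to the 15 proximal T cell receptor genes, an alternative chosen after the data were seen, moved the median of all genes by 1.01 and called 4530 genes higher and 178 lower, so that 96.2% of calls were higher against 31.1% under TMM. The values under both scalings are therefore given for the gene groups whose sign turns. Under the T cell scaling they are to be read beside the 1.01 of all genes.

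At most genes called against aged Treg 2, that library also lay beyond both young ones, which the choice of the genes favours. Of the 678 genes lower in Dcaf1-deficient Treg, 622 (91.7%) were higher in aged Treg 2 than in both young libraries, 238 of them by at least 2-fold, while 33 were at least 2-fold lower in Dcaf1-deficient than in both young Treg. Of the 306 higher genes, 269 (87.9%) were lower in aged Treg 2 than in both young libraries, 70 by at least 2-fold, and 46 were at least 2-fold higher in Dcaf1-deficient than in both young Treg. These are descriptions, since the young and old levels share aged Treg 2 with the calls, and shares over all genes were not computed. In Tconv, where no library is shared, 617 of the 678 (91%) were also lower in Dcaf1-deficient than in aged cells, and 80 were called lower, which is 11.8% of the Treg list and 35.4% of the 226 genes called lower in Tconv (2.38% of 9495). Of the 306, 273 (89.2%) were also higher in Tconv and 6 were called, which is 1.96% of the list and 9.09% of the 66 genes called higher (0.695%). Over all genes tested in Tconv, 50.9% were lower.

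The library labelled aged Treg 1 was nearer to the Dcaf1-deficient mean than to aged Treg 2 at 670 of the 678 lower and all 306 higher genes. It lay between them at 559 and 220 of these genes. Choosing genes by the gap to aged Treg 2 favours a position near the Dcaf1-deficient mean, and no share over all genes was computed. On a CPM scale where 0 is the Dcaf1-deficient mean and 1 is aged Treg 2, 427 genes lower by at least 1 on the log2 scale had a median position of 0.0999 (quartiles 0.0621 and 0.148) in this library. The position was between 0 and 0.3 at 410 of the 427. At the 166 genes higher by at least 1 the median was 0.212 (quartiles 0.0906 and 0.315), and 101 lay between 0 and 0.3. Single genes with large differences had like positions, with Il1r2 at 0.0892, Areg at 0.0911, Il10 at 0.102, Foxp3 at 0.118, Slc24a3 at 0.133, Bzrap1 at 0.136, Rpl29 at 0.148, Abhd14b at 0.199, Ecel1 at 0.203 and Col6a4 at 0.223.

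**Figure D2:**
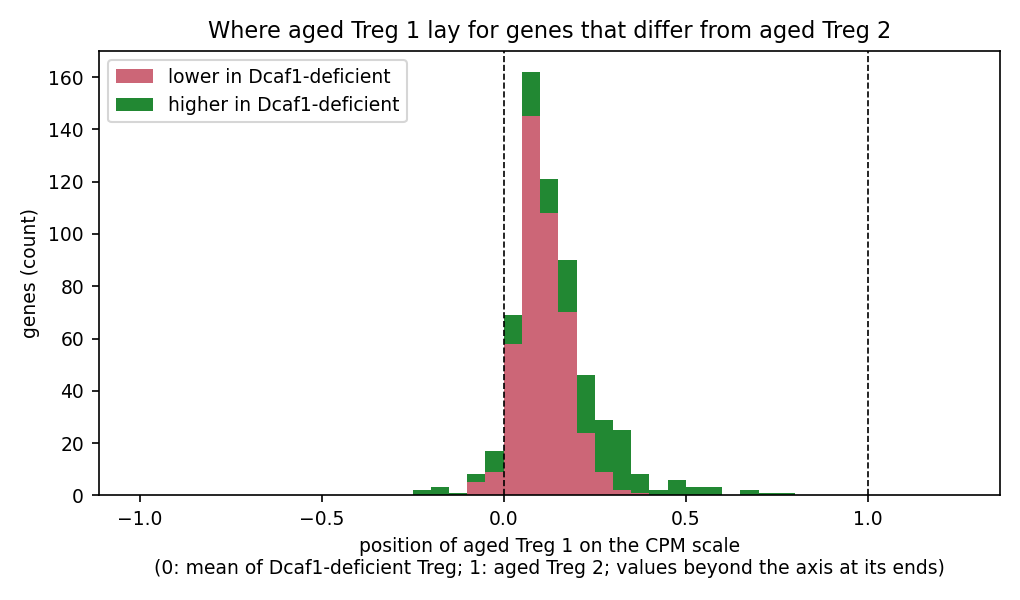
Position of the library labelled aged Treg 1 between the Dcaf1-deficient mean (0) and aged Treg 2 (1), on the CPM scale, for the genes called against aged Treg 2 with a log2 difference of at least 1, as a histogram of gene counts with higher genes stacked on lower ones and values beyond the axis placed at its ends. The 427 lower genes have a median of 0.0999 and the 166 higher genes a median of 0.212.

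A small set of genes was higher in both old libraries than in young Treg, and this was not reproduced in Dcaf1-deficient Treg. In 18 genes both old libraries lay at least 2-fold above each of the 4 young and Dcaf1-deficient Treg libraries, and in 0 genes at least 2-fold below. These are out of 7688 genes that averaged 4 CPM or more in the old pair or in the other 4 libraries. The widest gap was at Ecel1, an endothelin-converting enzyme-like metallopeptidase gene (chromosome 1, 87147655 to 87156521). Ecel1 was at 9.05 and 44.1 CPM in the old libraries, 0.07 and 0.17 in Dcaf1-deficient Treg and 0.19 and 0 in young Treg, a nearest ratio of 48. The remaining 17 were Nwd2, Sncg, Krt17, Mark1, Slc24a3, Col16a1, Rasgrf1, Bzrap1, Serpinf1, Myh3, Ier5l, Insrr, Reep1, Areg, Aebp1, Slc7a10 and Il1r2. Just inside the limit were Il1r2 and Slc7a10 (nearest ratios 2.04 and 2.11), and just outside Serpina9 and Clip3 (1.92 and 1.84). In each of the 18 the library labelled aged Treg 1 was below aged Treg 2. Several were low in it, with Mark1 at 0.45, Sncg at 1.06, Nwd2 at 1.36 and Krt17 at 1.85 CPM. Such genes met the mean of 4 CPM only through aged Treg 2.

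The genes of the set with the highest levels in aged Treg 2 encode a receptor, an adaptor and a growth factor. Il1r2, the decoy receptor of interleukin 1, was at 102 and 720 CPM in the old libraries, 50.2 and 33.6 in Dcaf1-deficient Treg and 19.3 and 15.1 in young Treg. Bzrap1, an adaptor protein gene, was at 111 and 637, 29.9 and 25.5, and 24.7 and 17.4 CPM in the same order. Areg, which encodes amphiregulin, a ligand of the epidermal growth factor receptor made by tissue Treg, was at 12 and 85, 5.56 and 3.90, and 3.06 and 1.60 CPM. The gap to the old libraries follows from how the set was chosen. At all 3 genes both Dcaf1-deficient libraries were above both young ones. Slc24a3, a sodium and calcium exchanger gene, was at 10.2 and 65.9 CPM in the old libraries and 1.65 and 1.64 in Dcaf1-deficient Treg. Slc7a10, an amino acid transporter gene, was at 16.9 and 58.6 CPM against 5.87 and 4.87.

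Tconv libraries, which had no part in the choice of the 18 genes, showed the same separation. In all 18 both aged Tconv libraries were at least 2-fold above each young and Dcaf1-deficient Tconv library, against 300 of 7688 genes (3.9%). The edgeR test called 10 of the 18 lower in Dcaf1-deficient than in aged Tconv (55.6%), against 2.5% of the 7688. The 18 were picked for wide gaps, and most were at a few CPM or less in young Treg. No share over genes of like level was computed, so the shares over the 7688 are a loose background. Ecel1 was at 62.7 and 63.8 CPM in aged Tconv and 0.15 and 0 in Dcaf1-deficient Tconv (log2 fold change -9.65, edgeR adjusted p 0.0232). Bzrap1 was at 436 and 730 against 34.1 and 29.4 CPM (-4.20, edgeR adjusted p 0.0366), and Slc7a10 at 51.5 and 72.5 against 1.46 and 1.06 (-5.61, edgeR adjusted p 0.0153). Il1r2 was at 140 and 570 against 7.46 and 8.05 CPM (-5.51, edgeR adjusted p 0.039). Areg was at 23.7 and 28.2 against 2.54 and 2.22 CPM and missed the threshold (edgeR adjusted p 0.0638). Aged Tconv 2 carries the same tag as aged Treg 2 and held the higher level of most of these genes, but Ecel1 and Areg were close to level between the aged Tconv libraries.

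**Figure D3:**
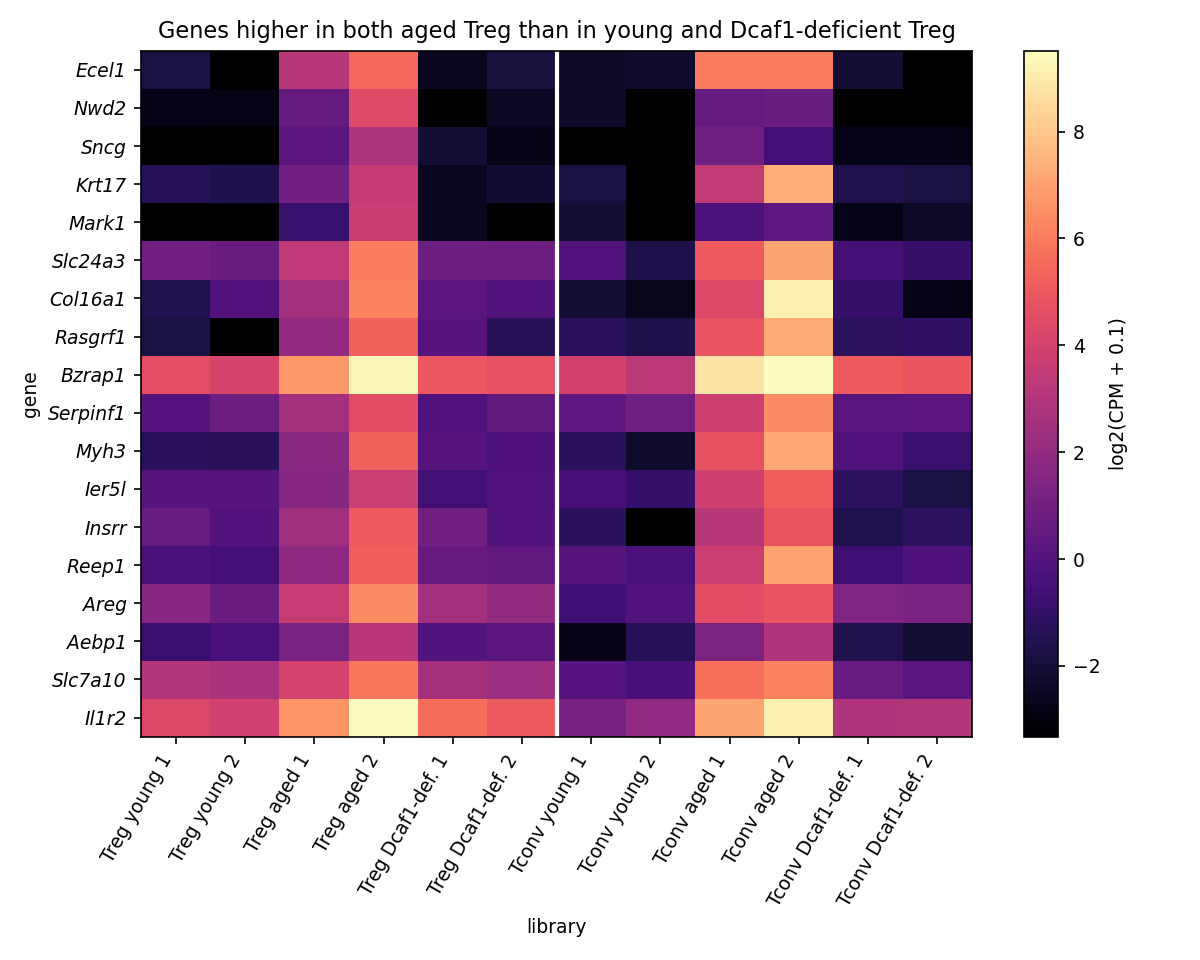
Colour gives the level, as log2 of CPM with 0.1 added, of the 18 genes (rows) with both old Treg libraries at least 2-fold above every young and Dcaf1-deficient Treg library, in all 12 libraries (columns), Treg left of the white line and Tconv right of it. Ecel1 stands at 9.05 and 44.1 CPM in the old Treg libraries and at most 0.19 in the young and Dcaf1-deficient ones.

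The promoters of Ecel1, which has the widest gap, and Areg, the secreted factor of the set, are shown as the 250 bases before the RefSeq start (GRCm38.p6, the build of mm10), read 5′ to 3′ on the strand of the gene. The RefSeq start of Ecel1 lies inside the GENCODE span given above, so that part of its window is within that gene model. The capitals in the Areg promoter mark TGACGTCA, the full cyclic AMP response element, which was looked for after the sequence had been seen.
Ecel1, chr1:87156357-87156606, minus strand: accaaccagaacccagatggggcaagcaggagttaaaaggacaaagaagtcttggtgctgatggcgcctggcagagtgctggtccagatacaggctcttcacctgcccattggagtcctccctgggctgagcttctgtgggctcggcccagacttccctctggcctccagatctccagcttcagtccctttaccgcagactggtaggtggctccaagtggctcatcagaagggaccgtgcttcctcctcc
Areg, chr5:91139349-91139598, plus strand: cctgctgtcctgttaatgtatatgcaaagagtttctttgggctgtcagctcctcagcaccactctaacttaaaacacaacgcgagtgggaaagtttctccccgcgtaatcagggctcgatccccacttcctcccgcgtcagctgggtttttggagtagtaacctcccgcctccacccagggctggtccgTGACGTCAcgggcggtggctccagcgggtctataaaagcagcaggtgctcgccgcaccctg
Ecel1 holds 4 CpG in this window and Areg 15. Of the 18 genes 15 were found in the RefSeq table, with 17 promoters. On either strand, TGACGTCA was in 1 of the 17 (Areg) and in 508 of 32851 promoters of the same length (1.55%). The AP-1 motif TGANTCA was in 1 (Nwd2) against 2217 (6.75%), and the forkhead motif TGTTTAC in 0 against 1040 (3.17%). A match is a description of letters only.

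Il10 and other effector Treg genes were lower in Dcaf1-deficient than in aged Treg 2. Il10 (chromosome 1, 131019845 to 131024974) was at 4.47 and 3.65 CPM in Dcaf1-deficient Treg, 18.4 in the library labelled aged Treg 1, 144 in aged Treg 2, and 13.1 and 11 in young Treg. Both Dcaf1-deficient libraries were thus below every wild-type one. The log2 fold change was -5.15 against aged Treg 2 (SE 0.34, edgeR adjusted p 0.00316) and -2.18 against the library labelled aged Treg 1 (SE 0.35, edgeR adjusted p 0.853, DESeq2 adjusted p 1.01e-04). In Tconv, Il10 was at 105 and 168 CPM in aged and 1.32 and 2.07 in Dcaf1-deficient cells (-6.32, edgeR adjusted p 0.0242).

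Of 19 effector Treg genes tested against aged Treg 2, 11 were called lower and 0 higher, with a median log2 fold change of -1.46 beside -0.02 over all genes and 6.93% called lower. Scaled to T cell receptor genes, 8 were called lower and the median was -0.44 against 1.01. Besides Il10 and Areg the 11 were Prdm1, which encodes the effector regulator Blimp-1, Batf, Gata3, Maf and Nfil3 (transcription factors), the costimulatory receptor gene Icos, the integrin gene Itgae, the interleukin 33 receptor gene Il1rl1 and the chemokine receptor gene Cxcr3. Prdm1 was at 84.6 and 77.6 CPM in Dcaf1-deficient Treg, 117 and 514 in the old libraries, and 34.0 and 42.0 in young Treg. Itgae was at 461 and 305, 549 and 2343, and 167 and 146 CPM. Icos was at 467 and 314, 511 and 1070, and 253 and 209 CPM. At these 3 genes Dcaf1-deficient Treg were above both young libraries and below both old ones. Gata3, at 77.7 and 75.8 CPM against 91.1 and 294 in the old libraries, was also below both young libraries (126 and 81.9). Against the library labelled aged Treg 1 the median of the list was -0.25, beside 0.02 over all genes. With both old libraries it was -1.02 and 0 of 19 were called.

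Treg identity genes were lower too, by a similar amount. Of 11 tested against aged Treg 2, 6 were called lower and 0 higher, with a median of -1.78, beside 6.93% of all genes called lower, and 4 were called lower with a median of -0.76 when scaled to T cell receptor genes. The 6 were the transcription factor genes Ikzf2 (-2.12) and Ikzf4 (-1.76), Ctla4 (-2.49), the costimulatory receptor genes Tnfrsf18 (-1.83) and Tnfrsf4 (-2.32), and Itgae (-2.61). Ctla4 was at 456 and 372 CPM in Dcaf1-deficient Treg, 635 and 2327 in the old libraries, and 1146 and 616 in young Treg. Ikzf2 was at 461 and 435, 655 and 1942, and 1267 and 671 CPM. At both genes the library labelled aged Treg 1 lay with the lower libraries, and against it the list median was -0.28. In Tconv, Ctla4 and Ikzf2 were also called lower in Dcaf1-deficient than in aged cells, with log2 fold changes of -3.46 and -2.55 (edgeR adjusted p 0.0313 and 0.0392).

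Foxp3 itself (chromosome X, 7573644 to 7595245) missed the threshold. It was at 625 and 535 CPM in Dcaf1-deficient Treg, 746 in the library labelled aged Treg 1, 1986 in aged Treg 2, and 1428 and 812 in young Treg. The log2 fold change was -1.78 against aged Treg 2 (SE 0.49, 95% interval -3.05 to -0.51, edgeR adjusted p 0.0581) and -0.37 against the library labelled aged Treg 1 (SE 0.49, edgeR adjusted p 1). Both Dcaf1-deficient libraries had the lowest Foxp3 CPM of the 6 Treg libraries, and also the lowest summed T cell receptor levels, at 5050 and 4690 CPM. Under the T cell scaling the Foxp3 log2 fold change against aged Treg 2 was -0.76, beside 1.01 over all genes. Il2ra, which encodes the CD25 used for the sort, was at 774 and 576 CPM against 763 and 969 in the old libraries, with a log2 fold change of -0.52 against aged Treg 2 (SE 0.44, edgeR adjusted p 0.434), which turns to 0.49 under the T cell scaling (edgeR adjusted p 0.335).

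**Figure D4:**
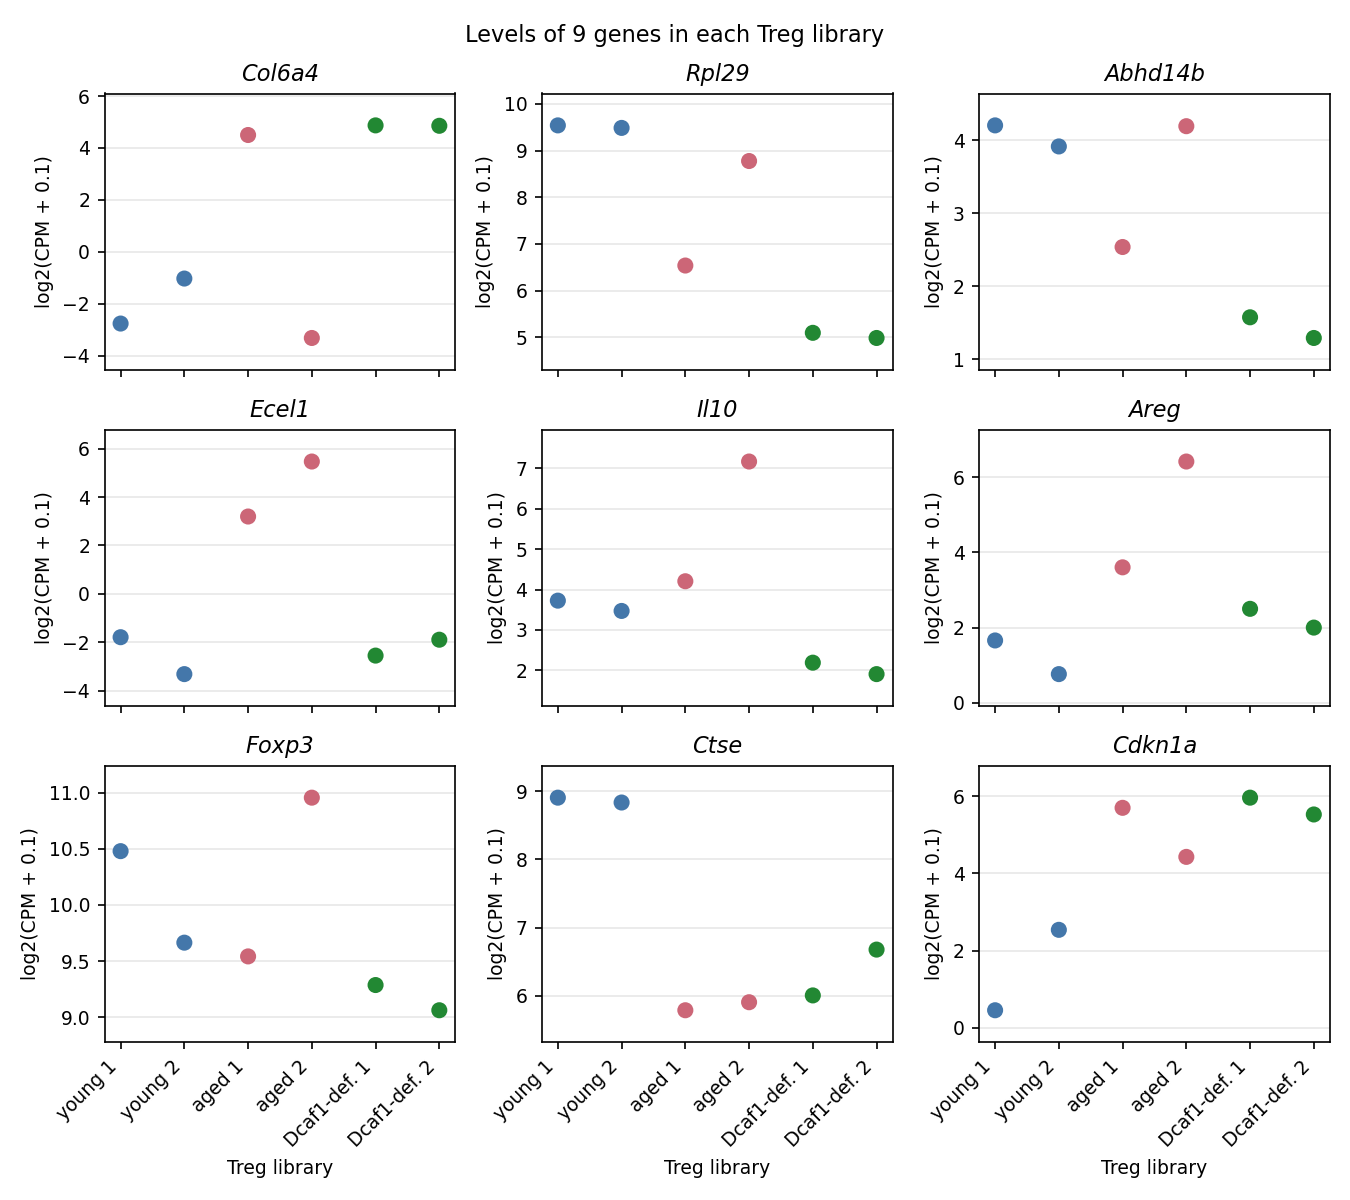
Level of 9 genes, as log2 of CPM with 0.1 added, with 1 point for each of the 6 Treg libraries, young in blue, old in red and Dcaf1-deficient in green. Ecel1 and Il10 are highest in aged Treg 2 and low in both Dcaf1-deficient libraries, whereas Col6a4 is high in the Dcaf1-deficient libraries and in the library labelled aged Treg 1.

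Proximal T cell receptor genes moved with these lists. Of 15, 8 were called lower against aged Treg 2 (6.93% of all genes) with a median of -1.13, and scaled to these genes themselves 3 were higher and 1 lower with a median of -0.1. The 8 included Lck (-1.16), Zap70 (-1.74), Cd247 (-1.16) and Cd3e (-1.81). Cd3e, a chain of the T cell receptor complex, was at 203 and 191 CPM in Dcaf1-deficient Treg, 244 and 692 in the old libraries and 457 and 300 in young Treg. Against the library labelled aged Treg 1 the median of the T cell receptor list was -0.21. Macrophage, B cell, erythroid and neutrophil lists moved the other way, with medians of 4.71, 5.59, 5.79 and 5.04 against aged Treg 2. Against the library labelled aged Treg 1 these medians were 0.35, 0.26, 0.97 and 0.75. The part of these lists in the results for Treg genes was not tested. Few of these members passed: 0 of 14 macrophage genes higher and 1 lower, 0 of 10 B cell genes, 2 of 15 erythroid genes (Rhag and Rhd) higher and 0 of 11 neutrophil genes. The macrophage gene that was lower, the scavenger receptor gene Stab1, was at 12.1 and 12.6 CPM in Dcaf1-deficient Treg and 21 and 185 in the old libraries. Without young Treg 2 more macrophage, B cell, erythroid and neutrophil genes passed as higher, at list medians of 4.75, 5.63, 5.83 and 5.09. The same contrast in Tconv had summed T cell receptor levels of 10900 and 10900 CPM in Dcaf1-deficient and 12100 and 13600 in aged libraries. There the effector Treg list had a median of -0.95 with 5 of 19 called lower, and the Treg identity list a median of -1.38 with 3 of 11 called lower.

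**Figure D5:**
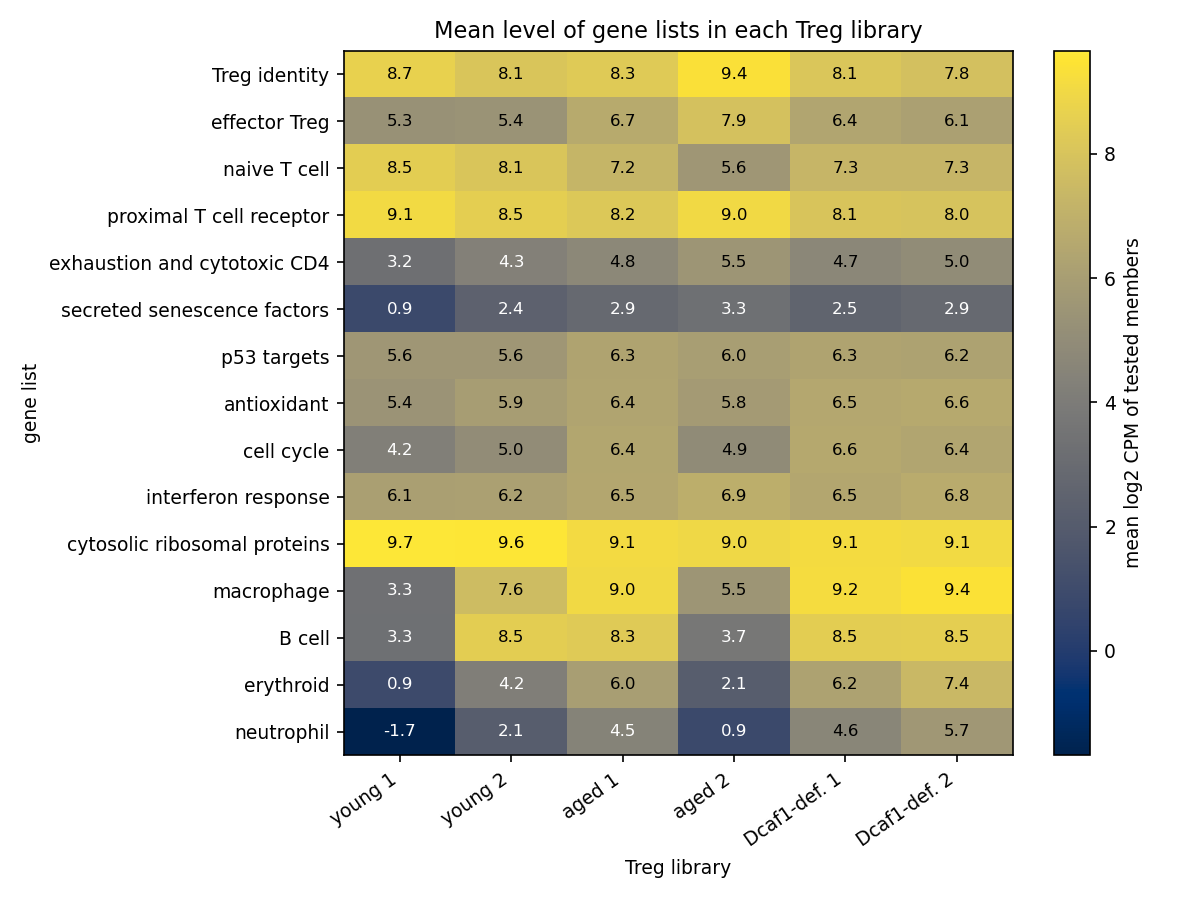
Mean log2 CPM of the tested members of 15 gene lists (rows) in each of the 6 Treg libraries (columns), as colour and printed values. The effector Treg list averages 7.88 in aged Treg 2, 6.68 in the library labelled aged Treg 1, and 6.39 and 6.12 in Dcaf1-deficient Treg, while the macrophage list averages 5.53, 9.03, and 9.20 and 9.43 in the same order.

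Secreted factors, interferon genes and immediate early genes gave smaller counts. Against aged Treg 2 their medians lay below that of all genes under both scalings. The median of all genes was -0.02 under TMM and 1.01 under the T cell scaling. Against the library labelled aged Treg 1 the list medians were -0.04, 0.1 and 0.09 under TMM, beside 0.02 over all genes. Against aged Treg 2, where 6.93% of all genes were lower, 4 of 24 secreted senescence factors were called lower and 0 higher, with a median of -0.18 that turns to 0.85 under the T cell scaling (1 higher and 4 lower). The 4 were Areg, the cytokine gene Csf1, the chemokine gene Cxcl10 and Spp1, which encodes osteopontin. Spp1 was at 0.77 and 1.05 CPM in Dcaf1-deficient Treg, 1.40 in the library labelled aged Treg 1, 37.5 in aged Treg 2, and 0.75 and 0.48 in young Treg, so it was high in 1 library only. Csf1 was at 25.6 and 28.2, 36.5, 195, and 45.3 and 39.9 CPM in the same order, and among Treg libraries was likewise high in aged Treg 2 only. Of 25 interferon response genes, 7 were called lower and 0 higher (median -0.39), among them Oas1a and the GTPase genes Gbp3, Gbp5, Gbp7, Igtp and Irgm1, whose families hold near-identical copies that make single counts uncertain. Scaled to T cell receptor genes the median of this list was 0.64, still below the 1.01 of all genes. In Tconv 5 of 25 were called higher and 0 lower, beside 0.695% of all genes called higher. Of 13 immediate early genes, 4 were lower (Egr2, Dusp1, Nr4a2 and Nr4a3) and 1 higher (Myc, 0.68), with a median of -0.18 that turns to 0.84 under the T cell scaling (3 higher and 2 lower).

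As a list, genes of naive T cells were lowest in aged Treg 2, without passing the test one by one. Of the 13, 11 were higher and 2 lower in Dcaf1-deficient Treg than in aged Treg 2. Their median was 1.88, beside -0.02 over all genes. Scaled to T cell receptor genes their median was 2.91, beside 1.01 over all genes. Against the library labelled aged Treg 1 it was 0.06 without that scaling. Ccr7, a chemokine receptor of lymph node homing, was at 227 and 204 CPM in Dcaf1-deficient Treg, 201 in the library labelled aged Treg 1, 55.3 in aged Treg 2, and 296 and 300 in young Treg. Bach2, a transcription factor that restrains effector programmes, was at 212 and 174, 204, 26.4, and 274 and 233 CPM in the same order. At both genes Dcaf1-deficient Treg lay between young Treg and aged Treg 2, and the log2 fold changes of 1.96 and 2.86 had edgeR adjusted p of 0.269 and 0.0905.

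Some genes of antioxidant defence and of the cell cycle were higher in Dcaf1-deficient than in aged Treg 2. Of 25 antioxidant genes, 5 were called higher and 0 lower (median 0.46), beside 3.13% of all genes. Cat, which encodes catalase, was at 275 and 299 CPM in Dcaf1-deficient Treg, 255 and 99.0 in the old libraries, and 146 and 194 in young Treg (log2 fold change 1.53 with SE 0.19, edgeR adjusted p 0.0114). Gclm, a subunit of the enzyme that starts glutathione synthesis, was at 48.7 and 57.7, 42.2 and 17.2, and 23.3 and 27.4 CPM, and Gpx1, a glutathione peroxidase gene, was higher by 1.96. The remaining called members were the glutathione synthetase gene Gss (1.25) and G6pdx (1.22), which encodes the enzyme that opens the pentose phosphate pathway. Of 11 glutathione S-transferase genes, Gsto1 and Mgst3 were called higher. Gstp1, by contrast, was nearly level, at 151 and 147 CPM in Dcaf1-deficient Treg, 150 and 176 in the old libraries and 151 and 143 in young Treg. Its log2 fold change against aged Treg 2 was -0.24 (95% interval -0.52 to 0.04, edgeR adjusted p 0.177) and turns to 0.78 under the T cell scaling. Of 21 cell cycle genes, 2 were called higher (median 1.82): Ccne1, which encodes cyclin E1 (2.11), and the replication helicase gene Mcm7 (0.89). Against the library labelled aged Treg 1 the medians of the antioxidant and cell cycle lists were 0.17 and 0.08. The erythroid sums above moved with these lists, at 306 CPM in aged Treg 2 against 5700 and 12800. Erythroid cells also express Cat, Gpx1 and cell cycle genes, and their part was not tested.

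Of the 12 largest increases against aged Treg 2, several are known from erythroid cells, among them Hemgn and Rhd, a blood group antigen gene. Rhd was at 14.1 and 36.7 CPM in Dcaf1-deficient Treg, 8.93 in the library labelled aged Treg 1, 0.69 in aged Treg 2, and 1.32 and 1.34 in young Treg. Sox4, a transcription factor gene of lymphoid progenitors, was at 37.3 and 20.4, 29.1, 0.55, and 7.11 and 11.9 CPM (log2 fold change 5.69 with SE 0.67, edgeR adjusted p 0.0129). The others were Col6a4, Abcg4, Myo18b, Daf2, Sphk1, Arntl2, Tppp, Adhfe1 and Crip2. The 12 largest decreases were Nwd2, Ecel1, Mark1, Krt17, Serpind1, Sncg, B3galt1, Rasgrf1, Abhd12b, Spp1, Myh3 and Slc24a3. Of these, 8 belong to the 18 genes higher in both old libraries.

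Some differences from young Treg were shared by Dcaf1-deficient and old Treg. The library labelled aged Treg 1 stood beside the Dcaf1-deficient ones and went against its label near Dcaf1. The old side of these patterns therefore rests mainly on aged Treg 2. In 83 genes both Dcaf1-deficient and both old libraries lay at least 2-fold above both young ones, and in 32 at least 2-fold below. These are out of 11486 genes with a count, kept where either side averaged 4 CPM or more. Ctse, the aspartic protease cathepsin E (chromosome 1, 131638306 to 131675505), was at 64.1 and 102 CPM in Dcaf1-deficient Treg, 55.1 and 59.8 in the old libraries, and 480 and 456 in young Treg. The difference from aged Treg 2 was 0.47 (SE 0.40, 95% interval -0.56 to 1.5, edgeR adjusted p 0.454), and all 4 libraries lay far below the young level. Scaled to T cell receptor genes the difference from aged Treg 2 was 1.51 and passed (edgeR adjusted p 0.0348). Tconv gave a like picture, with 60.8 and 65.6 CPM in Dcaf1-deficient, 51.6 and 104 in aged and 621 and 617 in young cells. Tcf7, a transcription factor of naive and central T cells, was at 212 and 247, 235 and 126, and 746 and 517 CPM in Treg.

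Cell cycle inhibitors were among the shared genes. Cdkn1a (chromosome 17, 29090976 to 29100727) was at 62.3 and 46.0 CPM in Dcaf1-deficient Treg, 51.9 in the library labelled aged Treg 1, 21.4 in aged Treg 2, and 1.27 and 5.71 in young Treg. All 4 libraries were thus above both young ones, and aged Treg 2 was the lowest of the 4. The log2 fold change against aged Treg 2 was 1.34 (SE 0.93, 95% interval -1.06 to 3.73, edgeR adjusted p 0.384), an interval that leaves room for a sizeable difference either way. Cdkn2a (chromosome 4, 89274471 to 89294653) was at 10.2 and 5.92, 9.58, 3.96, and 0 and 0.61 CPM in the same order (1.02, SE 1.47, edgeR adjusted p 0.673). Phlda3, a p53 target gene, was at 15.1 and 10.5, 14.0, 9.89, and 0.85 and 1.43 CPM. Klrg1, an inhibitory receptor of differentiated T cells, was at 136 and 133, 127, 346, and 31.8 and 38.3 CPM. Of 8 senescence inhibitor genes, 1 was called against aged Treg 2, beside 10.1% of all genes. It was Trp53, with a log2 fold change of -0.71 that turns to 0.31 under the T cell scaling, where the median of all genes was 1.01.

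Against the library labelled aged Treg 1 alone few differences were left. The 7 genes called by DESeq2 were Serpina9 (-1.69), Ecel1 (log2 fold change -6.30, DESeq2 adjusted p 3.13e-13), Fam160a1 (-2.59), Il10 (-2.18), Bzrap1 (-2), Slc7a10 (-1.65) and Rpl29 (-1.5), all lower in Dcaf1-deficient Treg. Fam160a1 was at 5.66 and 4.53 CPM in Dcaf1-deficient Treg, 30.7 and 143 in the old libraries, and 28.9 and 18.1 in young Treg. Ecel1, Bzrap1 and Slc7a10 were higher in this library than in every young and Dcaf1-deficient Treg library, while Rpl29, Fam160a1 and Il10 were lower in both Dcaf1-deficient libraries than in every wild-type one. In edgeR none of the 7 passed, with an adjusted p of 0.144 for Rpl29, 0.853 for Ecel1 and Il10 and 1 for Bzrap1 and Slc7a10.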

How the data were processed

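RNA was measured in 12 libraries. The authors deposited a table of estimated counts (Salmon 0.9.1, mm10, per the submitters' processing notes; gene sums by tximport, as the file headers say) and log2 values whose exact transform is not given in the sources used here. The count table has 13404 rows, of which 11486 have a count and 18 carry date-like names. Every column belongs to a sample.

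Counts were rounded and tested in R 4.3.3 with edgeR 4.0.16 (quasi-likelihood test, TMM, filterByExpr, 9495 genes kept and 1991 removed, 6 group means over 12 libraries, 6 residual degrees of freedom). For single old libraries, 11 libraries left 9752 (without aged Treg 2) or 9778 (without aged Treg 1) genes and 5 degrees of freedom. The Benjamini-Hochberg adjustment ran over all genes tested (threshold 0.05). Each SE is from the fitted dispersion. Log2 CPM for distances and list means used a prior count of 2. Gene coordinates are from GENCODE M21. Alternatives were DESeq2 1.42.0, limma 3.58.1 on the deposited log2 values, RLE factors, no filter, Treg only, a replicate block, tag and sex terms, a log2 fold change of at least 1 and leaving out libraries. Scaling to T cell receptor genes and leaving out young Treg 2 were chosen once the data had been seen.

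Members and gene lists were chosen with earlier results of these data known. Named genes were the 12 largest called changes in each direction per comparison (mean of at least 4 CPM, groups that do not overlap, no receptor segments or unnamed genes; DESeq2 where edgeR called under 10), the 12 widest gaps among genes beyond 2-fold in both old libraries (all 18 are listed), up to 4 called members per list and a standing set. List members came from the aged Treg 2 comparison, since the comparison with both old libraries called 0, which was decided with the values in view. Further genes are named as examples of lists or patterns, chosen after their values were seen. In a simulation, each gene had the same mean in all libraries, except where a change was set in Dcaf1-deficient Treg. Its old libraries thus did not differ as those of the data do, and its recovery does not give the power in these data. Tested on simulated data with 50 genes per size, the test against both old libraries recovered 12 at a log2 size of 1 and 37 at 2, against the library labelled aged Treg 1 it recovered 3 and 26, and against aged Treg 2 it recovered 2 and 20.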

Additional observations from a re-analysis of the deposited data

Results flagged for a closer look

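The chemokine receptor gene Cxcr3 differed between cell types in its contrast of Dcaf1-deficient against aged cells when the library labelled aged Treg 1 was left out. Cxcr3 was at 75.7 and 69.8 CPM in Dcaf1-deficient Treg, 99.3 in the library labelled aged Treg 1, 315 in aged Treg 2, and 43.7 and 44.9 in young Treg. In Tconv it was at 132 and 128 CPM in Dcaf1-deficient, 181 and 136 in aged, and 61.0 and 60.4 in young cells. The log2 fold change was -2.12 in Treg with SE 0.16 (edgeR adjusted p 0.00316) and -0.29 in Tconv (edgeR adjusted p 0.711), and the interaction was -1.83 (edgeR adjusted p 0.0403). With both old Treg libraries the interaction was -1.22 (edgeR adjusted p 0.719). Over all genes the interaction called 17 of 9778 (0.174%) without the library labelled aged Treg 1 and 0 with all libraries, where 702 genes had an unadjusted p under 0.05.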

How the results depend on the processing

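The comparison with both old libraries called 0 genes by edgeR under each scaling, filter and model term tried. Its count was 63 by DESeq2, and leaving out 1 library gave 0 to 984, the latter without the library labelled aged Treg 1. Against that library alone the count was 7 by DESeq2 and 6 by limma, and 0 under the other alternatives. Against aged Treg 2 the 984 calls became 2418 by DESeq2 (1273 higher, 1145 lower), 593 with a log2 fold change of at least 1, 382 with a sex term, 0 with a tag term, 0 in a fit of the Treg libraries alone, 18 to 61 without 1 Dcaf1-deficient library, 1693 without young Treg 2 and 4708 when scaled to T cell receptor genes. The cause of these shifts was not tested. Other counts were 979 by RLE (931 of the 984 kept), 855 without the filter and 1454 by limma. Under the T cell scaling 473 of the 984 kept their direction and call, 306 higher and 167 lower, and 17 of the 18 genes high in both old libraries were called lower.

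Under the same scaling the log2 fold change changed sign for Crbn (0.08), Gstp1 (0.78), Hk1 (0.07), Il2ra (0.49), Ncf4 (0.58), Oas1a (0.15), Trp53 (0.31) and Vprbp (0.70). All of these were below the median of all genes, 1.01. With a replicate block the calls against aged Treg 2 were 1036, of which 827 were shared with the main 984. The replicate differences of old and Dcaf1-deficient Treg had a correlation of -0.03, and with 2 numbers and no label on pairing the samples share only a number. Depth limits genes near 0.105 to 0.167 CPM.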

Other observations

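A few genes set Dcaf1-deficient Treg apart from every wild-type Treg library, old or young. In 14 genes both Dcaf1-deficient libraries were at least 2-fold below all 4 wild-type ones and in 3 at least 2-fold above. These are out of 11486 genes with a count, kept where either side averaged 4 CPM or more. The 14 were Glt28d2, Fam160a1, Art2b, Mst1, Med23, Zan, Rpl29, Ddx43, Il10, Sh3gl3, Gvin1, Noxa1, Cd27 and Nt5e. Nt5e, which encodes the adenosine-producing ectoenzyme CD73, was at 77.2 and 63.1 CPM in Dcaf1-deficient Treg, 160 in the library labelled aged Treg 1, 933 in aged Treg 2, and 445 and 245 in young Treg (log2 fold change against aged Treg 2 -3.74, SE 0.45, edgeR adjusted p 0.00883). Art2b, an ADP-ribosyltransferase gene of T cells with a near-identical copy that makes its counts uncertain, was at 7.95 and 7.93, 25.3, 238, and 110 and 59.7 CPM. Cd27, a costimulatory receptor gene, was at 3.52 and 3.95, 9.65, 22.1, and 19.4 and 8.35 CPM. Mst1, a growth factor gene on the Dcaf1 chromosome, was at 0.56 and 0.46, 1.74, 12.7, and 8.10 and 7.01 CPM. The 3 genes above all wild-type libraries were Kif1a, Sphk1 and the erythroid gene Tspo2, and Kif1a, a kinesin motor gene, was at 8.23 and 6.72 CPM against 0.33 to 2.16 in the wild-type libraries.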
